A study of Mus musculus with 6 samples.

Results

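Developmental transcription factors, the DNA-binding proteins that set and hold cell identity in the embryo and the adult, were examined in tumorspheres of a pair of related mouse ovarian cancer cell lines. The members were chosen by gene symbol, as all listed genes of the Hox, Fox, Sox, Tox, Tbx, Gata, Pax, Meis, Pbx, Lhx, Irx, Msx, Dlx, Emx, Nkx, Lmx, Satb, Prrx, Pitx, Runx, Tead, Tfap2, Mef2, Nfi, Ebf, Zic, Snai, Zeb and Bhlhe series, the sine oculis homeobox genes, Wt1, Tcf21, Hand, and the nuclear receptors, with the cell cycle factor Foxm1 left out. This gave 93 of the 7320 genes in the deposited table, of which 87 encode proteins and 6 are noncoding transcripts named after a neighbouring factor (Foxd2os, Gata5os, Hoxd3os1, Irx3os, Lhx1os and Wt1os). The same symbols cover 275 protein-coding genes of the GENCODE M21 mouse annotation.

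ID8 is a clonal line of transformed mouse ovarian epithelial cells from the C57Bl6 strain, and KMF (also called ID8-IP) was derived from ID8 by growth in mice and is named for DNA gains that include Myc and Ptk2, the FAK gene. Both were untreated and grown for 5 days as tumorspheres, free-floating cell clusters in serum-free medium, before poly(A) RNA sequencing. The ID8 libraries came from cell passages 23, 24 and 35 and the KMF libraries from passages 14, 17 and 22, so each line gave 3 libraries. Each group is thus 1 line sampled at 3 passages, the passages of the lines do not overlap, and every p-value below measures the spread between samples of 1 line.

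The libraries held 23108407 to 33212313 fragments on genes. The table lists only genes that the authors had already found different between the lines, 7320 of the 17359 genes they tested, so that a member being different is not a finding here, and members that did not differ are not in it. Of the 12 fixed markers of ovarian surface epithelium or mesothelium 9 were listed, and their summed level was 280.0 to 435.8 FPKM (fragment counts scaled by gene length and library size) in ID8 and 395.0 to 477.9 in KMF. Of the 8 of these that were called 6 were lower in KMF, with a median of -0.99 on the log2 scale over the 9, and the 2 higher ones, Lgals2 and Msln, made up most of the KMF sum. The 9 include Wt1, itself a member, at a mean of 108 FPKM in ID8 and 77.3 in KMF. Of the 8 granulosa cell markers 5 were listed, at a summed 66.0 to 78.8 FPKM in ID8 and 32.5 to 36.2 in KMF. Most of that sum is Nr5a1, also a member, at a mean of 46.7 FPKM in ID8 and 29.1 in KMF. These marker sums are therefore not independent of the members. Of the 8 fibroblast or stromal markers 4 were listed, at 77.3 to 107.3 FPKM in ID8 and 13.5 to 25.9 in KMF. Cd24a, the single listed fallopian tube marker of 5, had 6.66 to 19.9 FPKM in ID8 and 25.3 to 35.1 in KMF. The single listed leukocyte marker of 8, Cd74, had 0.857 to 1.59 FPKM in ID8 and 0.215 to 0.391 in KMF. Of the 7 endothelial markers 3 were listed, with Kdr at 0 in KMF and Tek reaching 27.7 to 47.6 FPKM there against 0.0146 to 0.0178 in ID8. The part of a changed cell makeup in the members' differences was not tested, and in bulk RNA fewer cells of a kind cannot be told apart from less RNA per cell.

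In the embryo these factors act in layers. Hox proteins give cells their position along the body axis, GATA factors, WT1 and NR5A1 build the gonad and its covering epithelium, and nuclear receptors tie transcription to steroids, retinoids and lipids. In the adult ovary the surface epithelium keeps WT1, GATA and other mesothelial factors, and Hox genes of the A cluster pattern the Müllerian duct, from which the oviduct and uterus arise.

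Of the 93 members 86 had enough counts to be fitted, and 78 of these passed the test (edgeR adjusted p under 0.05), beside 92.9% of all fitted listed genes. Among them 36 were higher and 42 lower in KMF, while over all fitted listed genes 45.4% were higher and 47.5% lower. A change of 2-fold or more was found for 46 members, 21 higher and 25 lower, which is 53.5% of those fitted beside 40.5% of all listed genes (18.0% higher and 22.5% lower). The median log2 fold change of the members, KMF over ID8, was -0.31, or -0.36 over all 93 with members at the detection floor set to their bound, and that of all listed genes was -0.23. In 82 members the libraries of the lines did not overlap, beside 96.6% of all listed genes. The 4 whose libraries overlapped were Sox8, Snai2, Bhlhe40 and Bhlhe41. The 8 fitted members that missed the threshold were Sox8, Hoxc6, Snai2, Prrx1, Nfix, Bhlhe40, Foxf2 and Rarg, and all of them but Nfix passed it in at least 1 alternative. Without KMF replicate 1, for one, Prrx1, Foxf2, Rarg and Bhlhe40 were called.

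The size of the differences varied with abundance. Of the 33 with a mean above 10 FPKM in their higher line, 7 changed 2-fold or more (21.2%, beside 25.2% of all listed genes at that level), and the median absolute log2 fold change was 0.52. Of the 38 members between 1 and 10 FPKM, 25 changed 2-fold or more (65.8%, beside 50.8%). The 22 at or under 1 FPKM include the 7 that could not be fitted, and 14 of the other 15 changed 2-fold or more (93.3%, beside 91.5%). By line, 50 members were above 1 FPKM in both, 13 in ID8 alone, 8 in KMF alone and 22 in neither.

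**Figure D1:**
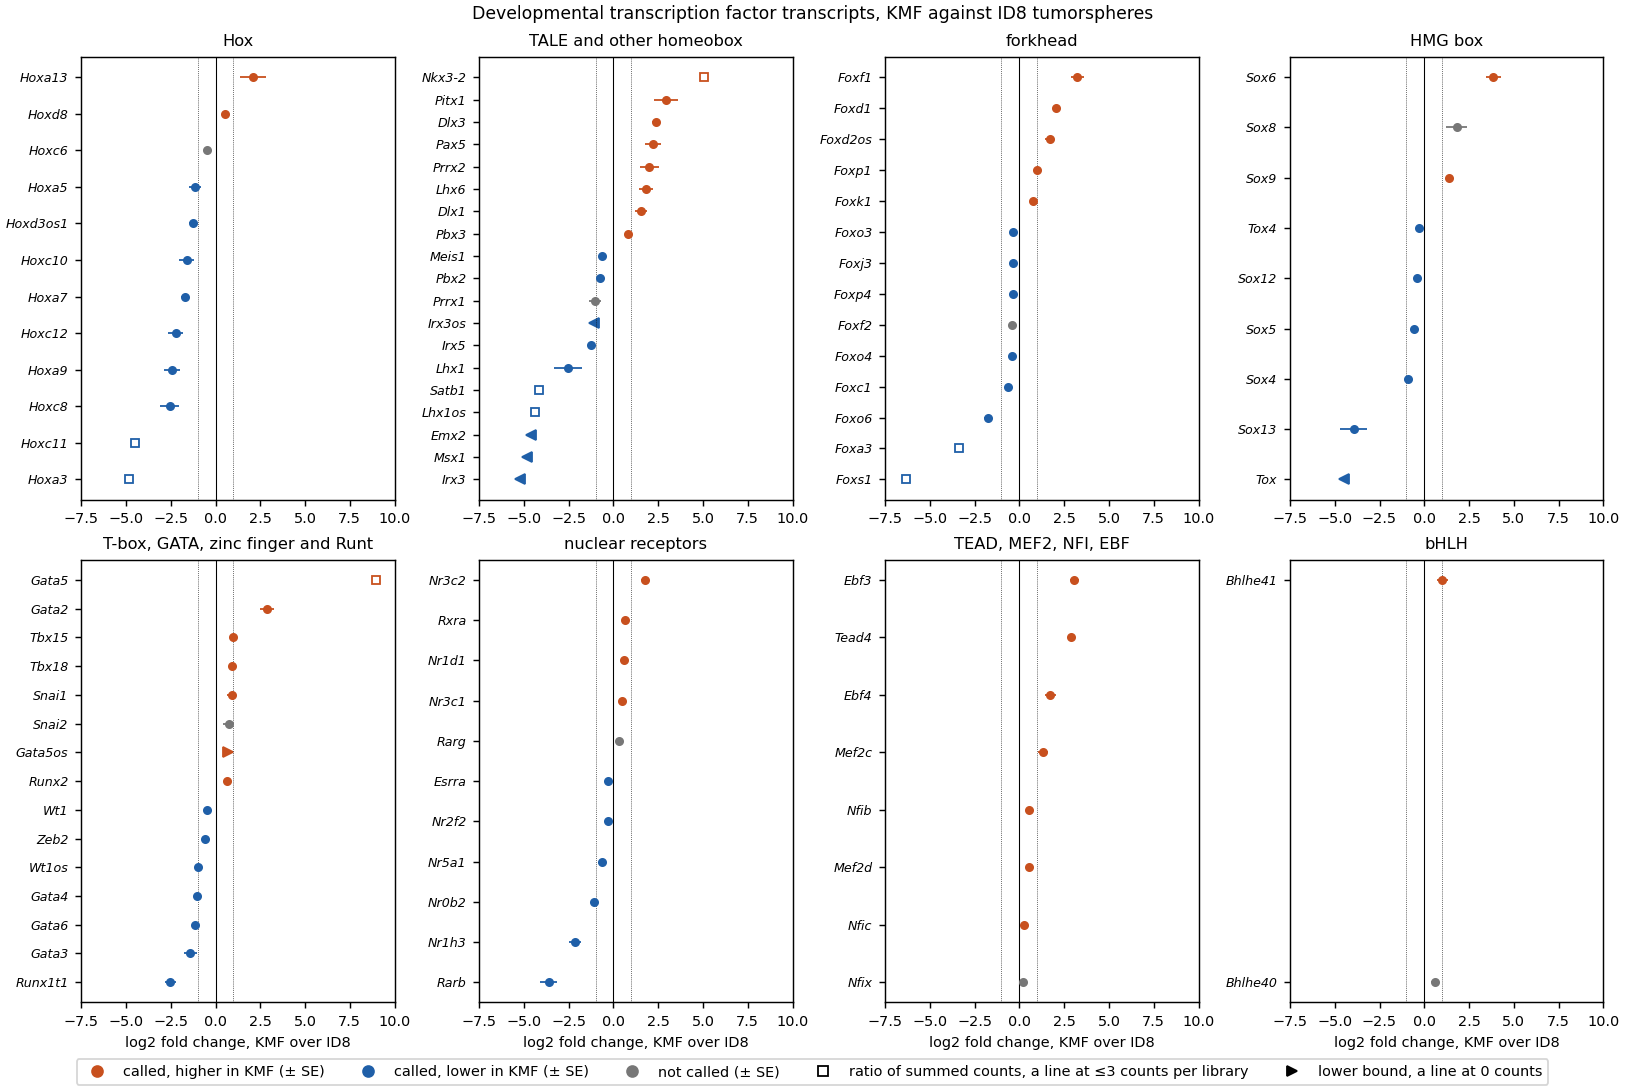
Each point is one of the members reported, placed on the horizontal axis by its log2 fold change (KMF over ID8, 3 libraries each) with its standard error, and grouped by family. Squares and triangles stand for members with 1 line at 3 counts or fewer in every library, given as a ratio of summed counts or as a bound. The TEAD, MEF2, NFI and EBF members all lie to the right of 0, and 10 of the 12 Hox members shown lie to the left.

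The promoters of several members with differences in either direction are given first, because they share a base composition that the choice by symbol did not use. Each line holds up to 250 bases upstream of the RefSeq start of the gene (assembly GRCm38.p6), on the gene's strand from 5′ to 3′, without bases inside the gene as the table places it. Capitals mark CG dinucleotides, the sites of DNA methylation in mammals.
Msx1, chr5:37824586-37824835, minus strand: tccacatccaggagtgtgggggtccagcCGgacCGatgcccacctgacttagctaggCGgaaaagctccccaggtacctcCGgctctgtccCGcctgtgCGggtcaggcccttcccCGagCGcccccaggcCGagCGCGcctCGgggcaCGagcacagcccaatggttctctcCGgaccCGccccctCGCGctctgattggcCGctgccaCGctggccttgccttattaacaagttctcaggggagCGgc
Gata5, chr2:180334700-180334929, minus strand: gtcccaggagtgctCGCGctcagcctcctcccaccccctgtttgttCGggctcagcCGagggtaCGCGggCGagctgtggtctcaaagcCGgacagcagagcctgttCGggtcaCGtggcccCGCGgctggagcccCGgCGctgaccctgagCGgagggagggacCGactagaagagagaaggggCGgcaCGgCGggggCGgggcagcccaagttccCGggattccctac
Hoxa5, chr6:52204588-52204837, minus strand: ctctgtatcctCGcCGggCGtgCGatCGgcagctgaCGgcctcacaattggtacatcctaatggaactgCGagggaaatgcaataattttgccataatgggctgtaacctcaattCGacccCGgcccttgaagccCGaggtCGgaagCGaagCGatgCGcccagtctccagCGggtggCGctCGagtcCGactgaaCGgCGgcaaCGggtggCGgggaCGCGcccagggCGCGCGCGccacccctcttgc
Hoxa13, chr6:52260881-52261130, minus strand: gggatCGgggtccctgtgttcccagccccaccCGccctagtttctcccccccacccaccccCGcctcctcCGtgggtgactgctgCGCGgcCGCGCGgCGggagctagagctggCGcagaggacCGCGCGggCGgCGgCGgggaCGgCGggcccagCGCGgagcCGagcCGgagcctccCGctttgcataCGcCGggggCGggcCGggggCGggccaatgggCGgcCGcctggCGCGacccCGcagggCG
Gata2, chr6:88193641-88193890, plus strand: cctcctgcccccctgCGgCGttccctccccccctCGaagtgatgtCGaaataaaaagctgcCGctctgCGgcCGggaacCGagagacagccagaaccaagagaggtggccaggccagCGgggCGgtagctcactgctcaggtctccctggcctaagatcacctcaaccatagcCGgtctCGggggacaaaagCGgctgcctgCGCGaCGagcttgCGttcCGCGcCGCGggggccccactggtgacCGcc
Ebf3, chr7:137314446-137314695, minus strand: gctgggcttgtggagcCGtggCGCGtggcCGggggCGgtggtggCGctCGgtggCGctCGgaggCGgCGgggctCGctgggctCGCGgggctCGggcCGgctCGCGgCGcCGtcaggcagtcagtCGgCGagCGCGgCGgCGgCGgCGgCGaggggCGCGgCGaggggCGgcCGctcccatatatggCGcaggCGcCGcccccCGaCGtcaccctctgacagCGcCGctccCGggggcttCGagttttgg

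These windows held 20 CG in Msx1, 21 in Gata5, 28 in Hoxa5, 35 in Hoxa13, 22 in Gata2 and 43 in Ebf3. Of the 93 members 62 had a promoter in the RefSeq table, and their 250 upstream bases held a median of 18 CG (range 0 to 43), against 5 over 27025 genes. At least 10 CG were found in 72.6% of the members' windows and in 37.7% of all. The letters TATAAA, searched on both strands, occurred in 4 of the 62 windows (6.45%) and in 12.9% of all. For a member the promoter nearest the start of the gene was taken, and for the 27025 genes the one with the lowest coordinate. The 27025 also include genes that were not listed. The contrast is therefore between sets that were not matched in promoter choice or expression. Members higher in KMF had a median of 19 CG (24 genes) and members lower in KMF 18 (27 genes), so CG content was much the same in either direction. No methylation was measured in these samples.

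Hox genes were mostly lower in KMF. Of 39 annotated protein-coding Hox genes 12 were listed, with 6 of 11 in the Hoxa cluster, none of 10 in Hoxb, 5 of 9 in Hoxc and 1 of 9 in Hoxd, and Hoxd3os1 was the noncoding member. Of 12 fitted members 9 were lower in KMF and 2 higher, and the family's median log2 fold change was -1.66. Most were low in both lines, with only Hoxc6 and Hoxd8 above 10 FPKM.

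Hoxa3, which acts in the pharyngeal arches, had 36, 38 and 37 counts in ID8 and 1, 1 and 2 in KMF, a level 28.0-fold lower in KMF (95% counting interval of the ratio 10.6 to 104). Hoxa5 had 28, 38 and 40 counts in ID8 and 11, 15 and 22 in KMF (log2 fold change -1.14 ± 0.34, edgeR adjusted p 0.0323). That call was lost under the replicate block and without any 1 of 5 of the libraries.

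Hoxa7 fell from 1.59 ± 0.21 to 0.477 ± 0.016 FPKM (SD, n = 3), which is -1.70 ± 0.24 on the log2 scale (SE, edgeR adjusted p 0.00108). Hoxa9, a gene of the trunk and of the oviduct, had 60, 22 and 31 counts in ID8 and 5, 6 and 9 in KMF, and its log2 fold change was -2.42 ± 0.43 (edgeR adjusted p 0.00303). Hoxa13, at the posterior end of the cluster, ran the other way, with 7, 3 and 0 counts in ID8 and 10, 13 and 20 in KMF. Its log2 fold change was 2.09 ± 0.70 (edgeR adjusted p 0.0496), 3.07 without ID8 replicate 1, and 10 of its 13 alternatives did not keep the call. Thus 5 of the 6 listed Hoxa genes were lower in KMF and the terminal gene was higher on very few reads.

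In the Hoxc cluster Hoxc8 had 115, 81 and 42 counts in ID8 and 6, 6 and 29 in KMF (log2 fold change -2.57 ± 0.55, edgeR adjusted p 0.00741). KMF replicate 3 stood above the other KMF libraries, and without it the value was -3.44. Hoxc10 (-1.61 ± 0.41, edgeR adjusted p 0.0170) and Hoxc12 (-2.23 ± 0.41, edgeR adjusted p 0.00359) were lower too, the call of Hoxc10 being lost under the replicate block and in 3 of the fits that left out a library. Hoxc11 was not fitted, with 10, 9 and 3 counts in ID8 and 0, 1 and 0 in KMF. Hoxc6 was the most abundant gene of its cluster in the table, at 11.9, 11.9 and 10.9 FPKM in ID8 and 7.35, 10.02 and 7.27 in KMF. Its libraries did not overlap, but it did not pass the test (log2 fold change -0.46, edgeR adjusted p 0.0538).

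Hoxd8 had 9.39, 9.72 and 11.7 FPKM in ID8 and 14.5, 15.3 and 13.1 in KMF, a rise of 0.52 ± 0.12 on the log2 scale (edgeR adjusted p 0.00970). Hoxd3os1, a noncoding transcript that runs opposite to Hoxd3 and Hoxd4, fell from 4.56 ± 1.10 to 1.83 ± 0.26 FPKM (log2 fold change -1.28, edgeR adjusted p 0.00312). The library kit does not mark the strand, so reads of a gene and of a transcript on the opposite strand cannot be told apart. Such overlaps cover 20.4% of the exon bases of Hoxa7 (Hoxaas3) and 12.1% of Hoxd3os1.

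**Figure D2:**
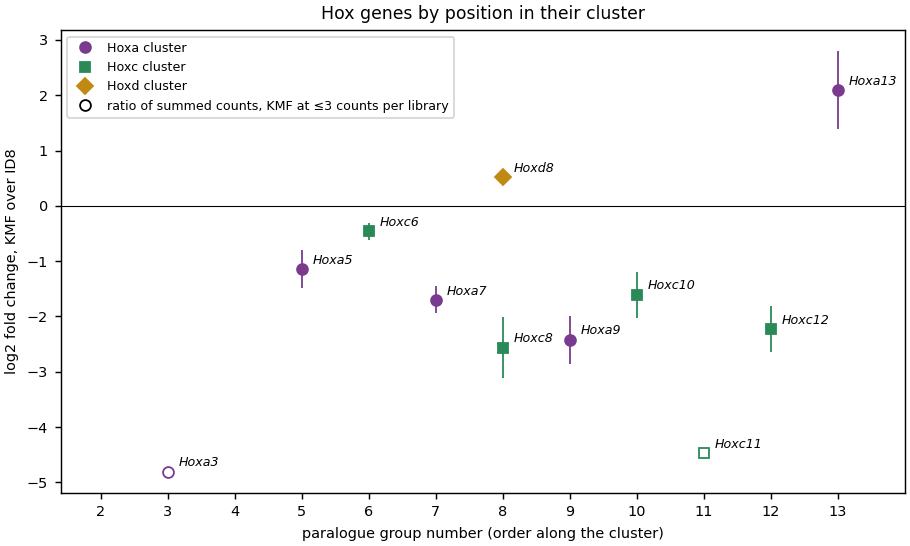
Listed protein-coding Hox genes are placed by paralogue number, the order along a cluster, with the log2 fold change (KMF over ID8) and its standard error on the vertical axis. Open symbols are ratios of summed counts for genes with 3 counts or fewer in every KMF library. The lowest values shown belong to Hoxa3 and Hoxc11, and Hoxa13 alone of its cluster lies above 0.

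Hox genes are held silent by Polycomb complexes and kept active by Trithorax proteins. Of 20 such regulators 12 were listed, and 10 passed the test, 3 higher and 7 lower in KMF (median log2 fold change -0.50). Ezh2, the main methyltransferase of Polycomb, rose from 12.7 ± 1.8 to 26.2 ± 2.7 FPKM, a log2 fold change of 1.08. Its paralogue Ezh1 changed by -0.83, the Polycomb ubiquitin ligase Ring1 by -0.67, and Kdm6a, which removes the Polycomb mark, fell from 37.2 ± 8.8 to 14.0 ± 0.9 FPKM, a log2 fold change of -1.37.

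Other homeobox genes split in direction. Of 71 annotated genes 18 were listed, along with Irx3os and Lhx1os, and of 16 fitted members 9 were higher and 6 lower in KMF. Several were read in ID8 and not at all in KMF. Irx3 (ENSMUSG00000031734, chr8:91798525-91801916), an Iroquois gene of neural and somatic gonad development, had 126, 111 and 102 counts in ID8 and 0 in each KMF library. With a floor of 3 counts in each library this is at least 37.0-fold lower in KMF. Its cluster neighbour Irx5, read at 10.7, 11.9 and 13.0 FPKM in ID8, kept 4.62, 4.84 and 5.12 FPKM in KMF (log2 fold change -1.24 ± 0.12, edgeR adjusted p 0.000143). Irx5 thus stayed well detected in the line in which no Irx3 read was counted.

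Msx1 (ENSMUSG00000048450, chr5:37820485-37824583), a muscle segment homeobox gene of epithelial and mesenchymal signalling that is also known from the uterus, had 127, 96 and 38 counts in ID8 and 0 in all 3 KMF libraries, at least 28.1-fold lower. Emx2 (ENSMUSG00000043969, chr19:59458372-59465357), which is required for the urogenital system, had 92, 127 and 5 counts in ID8 and 0 in KMF, at least 24.7-fold lower. ID8 replicate 3, of the latest passage, held far fewer Emx2 reads than the other ID8 libraries. Without it the bound was 36.2, and without replicate 2 it was 14.3. Nkx3-2, a skeletal patterning factor, ran the other way, with 2, 0 and 0 counts in ID8 and 25, 19 and 24 in KMF, a ratio of 33.7 (95% counting interval 8.99 to 284). Without ID8 replicate 1, which held both ID8 reads, it was at least 7.20-fold higher in KMF. Satb1, a chromatin organiser, was not fitted, with 38, 6 and 9 counts in ID8 and 1, 2 and 0 in KMF. Nor were Lhx1os (12, 4 and 5 counts in ID8) and Irx3os (6, 8 and 5), which had at most 1 count in a KMF library.

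**Figure D3:**
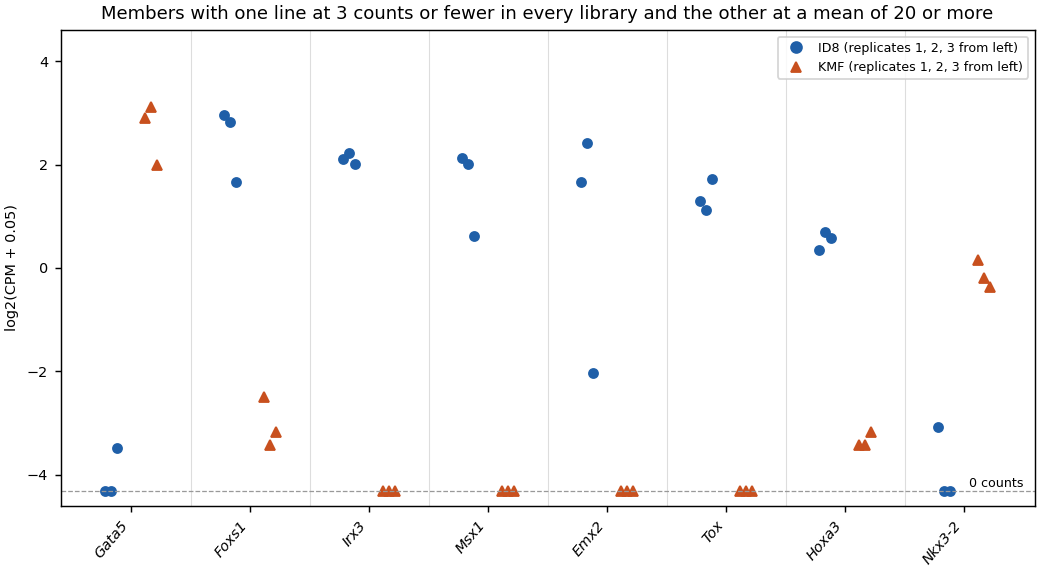
Points are single libraries, 3 of ID8 and 3 of KMF for each gene, on a log2 scale of CPM (counts scaled to library size) with 0.05 added. Gata5 and Nkx3-2 lie high in KMF and at or near 0 counts in ID8, and the other 6 genes shown lie high in ID8. Emx2 in ID8 replicate 3, at 5 counts, stands well below the other ID8 libraries.

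Among members read in both lines Pitx1, a hindlimb and pituitary factor, had 6, 1 and 2 counts in ID8 and 22, 29 and 15 in KMF (log2 fold change 2.93, edgeR adjusted p 0.00844), and 3.78 without ID8 replicate 1. Lhx1, a LIM homeobox gene of kidney and Müllerian duct development, had 31, 16 and 30 counts in ID8 and 9, 3 and 0 in KMF (log2 fold change -2.55, edgeR adjusted p 0.0359). It moved from -3.98 without KMF replicate 1 to -1.82 without KMF replicate 3, and the call was lost under the replicate block and in 5 of the 6 fits that left out a library, all but the one without KMF replicate 1. Both rest on few reads, while Dlx3, a factor of skin and placenta, was well read, with 2.65, 4.66 and 2.88 FPKM in ID8 and 17.8, 16.5 and 16.9 in KMF. All KMF libraries were above all ID8 libraries, and the log2 fold change of Dlx3 was 2.37 ± 0.22 (edgeR adjusted p 0.000129).

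Other homeobox members higher in KMF were Dlx1, Lhx6, Prrx2, Pax5 and Pbx3, from 0.78 in Pbx3 to 2.20 in Pax5 on the log2 scale. Lhx6 reached 6.88, 4.99 and 6.10 FPKM in KMF from 1.38, 2.87 and 0.929 in ID8. Of the TALE cofactors that bind DNA beside Hox proteins, Meis1 changed from 7.11 ± 0.73 to 4.48 ± 0.41 FPKM (log2 fold change -0.63, edgeR adjusted p 0.00250) and Pbx2 from 21.3 ± 2.7 to 12.3 ± 0.8 (-0.76), whereas Pbx3 rose from 4.55 ± 0.33 to 7.62 ± 0.13. The listed Pbx genes thus moved in opposite directions. Prrx1, a mesenchymal homeobox gene, stood at 1.64, 1.22 and 1.43 FPKM in ID8 and 1.10, 0.544 and 0.420 in KMF and missed the threshold (edgeR adjusted p 0.0529), while its paralogue Prrx2 was higher in KMF at 2.004 ± 0.53 (edgeR adjusted p 0.0198), a call lost without KMF replicate 2.

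GATA factors moved in both directions. Gata5 (ENSMUSG00000015627, chr2:180325133-180334699), a gene of endoderm, heart and the genitourinary tract, had 0, 0 and 1 counts in ID8 and 174, 198 and 130 in KMF. The summed ratio was 498 with a 95% counting interval of 89.0 to 19714, wide because it rests on a single ID8 read in replicate 3. Without that library the level was at least 58.6-fold higher in KMF. Gata5os, which overlaps Gata5 on the opposite strand, had 0 counts in ID8 and 7, 3 and 4 in KMF.

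Gata2, known from blood stem cells and endometrial stroma, had 28, 27 and 9 counts in ID8 and 154, 136 and 160 in KMF, so that no KMF library came near the ID8 range (log2 fold change 2.86 ± 0.39, edgeR adjusted p 0.000865). The gonadal genes Gata4 and Gata6 ran against these and were far more abundant. Gata4 (ENSMUSG00000021944, chr14:63198922-63271692) had 107, 92.1 and 96.3 FPKM in ID8 and 45.8, 46.6 and 49.4 in KMF, a log2 fold change of -1.02 ± 0.08 (edgeR adjusted p 5.79e-05). Gata6 had 80.9, 63.8 and 68.3 FPKM in ID8 and 36.8, 28.8 and 29.7 in KMF (-1.12 ± 0.13, edgeR adjusted p 0.000348). In both genes the groups lay far apart, yet no KMF library fell under 28.8 FPKM. Gata3, a factor of the nephric duct and T cells, was lower in KMF (-1.40, edgeR adjusted p 0.0151), a call lost without KMF replicate 2 and without KMF replicate 3.

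Wt1 (ENSMUSG00000016458, chr2:105126529-105173616), the marker of mesothelium and ovarian surface epithelium, had the highest mean of all members, with 118, 112 and 94.8 FPKM in ID8 and 90.0, 63.6 and 78.2 in KMF. The groups did not overlap, but the difference was small at -0.45 ± 0.14 (log2 fold change, edgeR adjusted p 0.0384), and it was lost in 4 of the 6 fits that left out a library. Wt1os, which lies beside Wt1 on the opposite strand, fell by 0.95 on the log2 scale, from 5.70 ± 1.23 to 2.87 ± 0.53 FPKM (edgeR adjusted p 0.00838).

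Runx1t1, a corepressor named for its fusion with RUNX1 in leukaemia, fell from 194, 145 and 139 counts in ID8 to 13, 25 and 45 in KMF (log2 fold change -2.53 ± 0.32, edgeR adjusted p 0.000585). Runx2, the master factor of bone, rose from 2.14 ± 0.04 to 3.23 ± 0.29 FPKM (0.63, edgeR adjusted p 0.00305). The T-box genes Tbx15 and Tbx18, the latter a gene of mesothelium and ureter mesenchyme, were both higher in KMF, by 0.99 and 0.92 on the log2 scale.

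Among the repressors of epithelial genes, Snai1 had 2.99, 2.20 and 3.41 FPKM in ID8 and 4.21, 6.86 and 4.66 in KMF (log2 fold change 0.91 ± 0.25, edgeR adjusted p 0.0225), a call lost under the replicate block and in 3 fits without a library. Snai2 overlapped between the lines and was not called (1.82, 3.10 and 1.34 FPKM against 3.76, 2.98 and 3.48, edgeR adjusted p 0.112). Zeb2 was lower in KMF, at 3.28 ± 0.54 FPKM against 5.12 ± 0.55 (log2 fold change -0.60, edgeR adjusted p 0.0110). The 3 members therefore did not share a direction. Of 25 epithelial genes that such factors repress 13 were listed, and of the 10 called 8 were lower in KMF, with Cdh1 at -3.55, Spint1 at -4.30 and Spint2 at -3.81 on the log2 scale, and Tjp3 higher at 4.61.

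The nuclear receptor genes Nr5a1 and Nr0b2 were abundant in both lines and lower in KMF. Nr5a1, the receptor SF-1 that drives steroid synthesis genes, had 43.5, 45.2 and 51.4 FPKM in ID8 and 32.2, 26.5 and 28.6 in KMF (log2 fold change -0.64 ± 0.10, edgeR adjusted p 0.00157). Nr0b2, the corepressor SHP that lacks a DNA-binding domain, had 34.2, 36.8 and 44.9 FPKM in ID8 and 17.2, 15.7 and 19.1 in KMF (-1.11 ± 0.13, edgeR adjusted p 0.000376). In both the lines were clearly separate. Nr2f2, a COUP factor of venous and stromal cells, changed by -0.33 (edgeR adjusted p 0.0178), and its call was lost under the replicate block and in 5 of the 6 fits that left out a library.

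**Figure D4:**
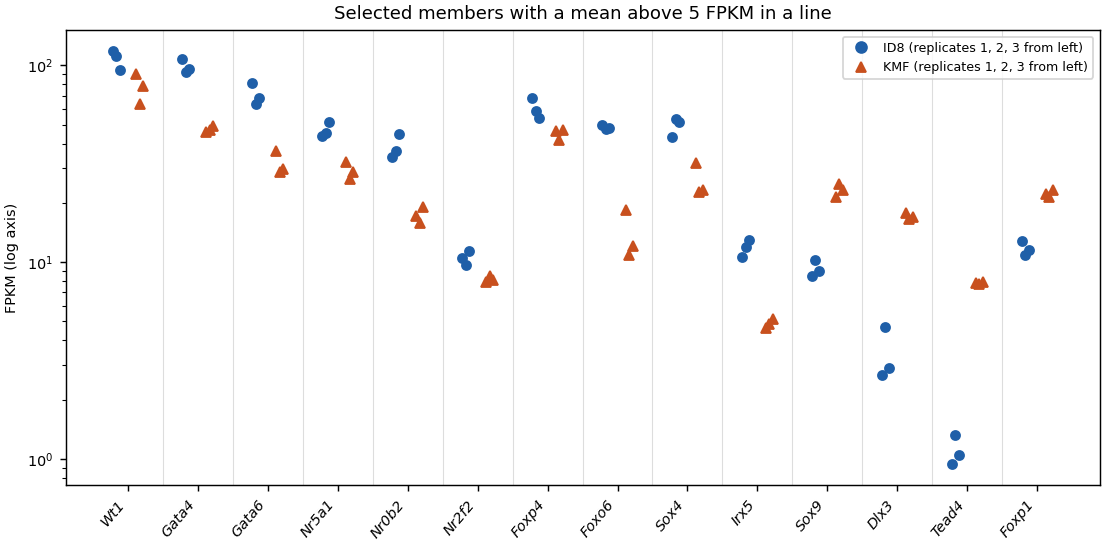
Points are the FPKM of single libraries, 3 per line, on a log axis, for 14 of the members above 5 FPKM in a line. Wt1, Gata4, Gata6, Nr5a1, Nr0b2, Foxo6, Sox4 and Irx5 lie lower in KMF without overlap, and Sox9, Dlx3, Tead4 and Foxp1 lie higher.

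The nuclear receptors, those above included, gave 11 listed members of 37 annotated, and of 10 called 4 were higher and 6 lower in KMF. Rarb (ENSMUSG00000017491, chr14:16430842-16575472), a retinoic acid receptor whose own gene is a target of retinoic acid, had 116, 72 and 142 counts in ID8 and 4, 4 and 19 in KMF (log2 fold change -3.62 ± 0.48, edgeR adjusted p 0.000787). KMF replicate 3 was highest of its line, and without it the value was -4.49. Exons of Top2b on the opposite strand cover 34.1% of the exon bases of Rarb, and reads from either could have been counted for it. Rarg, its widely expressed paralogue, stood at 19.3, 20.5 and 18.1 FPKM in ID8 and 21.1, 26.8 and 22.4 in KMF and was not called (edgeR adjusted p 0.0555). Rxra, the common partner of these receptors, rose from 21.3 ± 0.2 to 32.4 ± 3.6 FPKM (log2 fold change 0.64, edgeR adjusted p 0.000998).

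Retinoic acid is made from retinol by dehydrogenases and ALDH1A enzymes and carried by binding proteins. Of 18 genes of this pathway 8 were listed and all 8 passed the test, beside 92.9% of all fitted listed genes. Of the 8, 7 were lower and 1 higher in KMF, with a median of -2.97 on the log2 scale. Aldh1a2, the main retinaldehyde dehydrogenase of the embryo, had 28.0, 27.8 and 4.22 FPKM in ID8 and 0.281, 0.210 and 0.0532 in KMF (-6.84, edgeR adjusted p 0.000800). ID8 replicate 3 was low in this gene as it was in Emx2, but still far above KMF. Fabp5, which carries retinoic acid and fatty acids, changed by -4.33 and the retinal reductase Dhrs3 by -2.80, while the retinol dehydrogenase Dhrs9 was higher by 1.61, a call lost without ID8 replicate 1 and without KMF replicate 2. Without ID8 replicate 2 Dhrs9 was at 2.22.

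**Figure D5:**
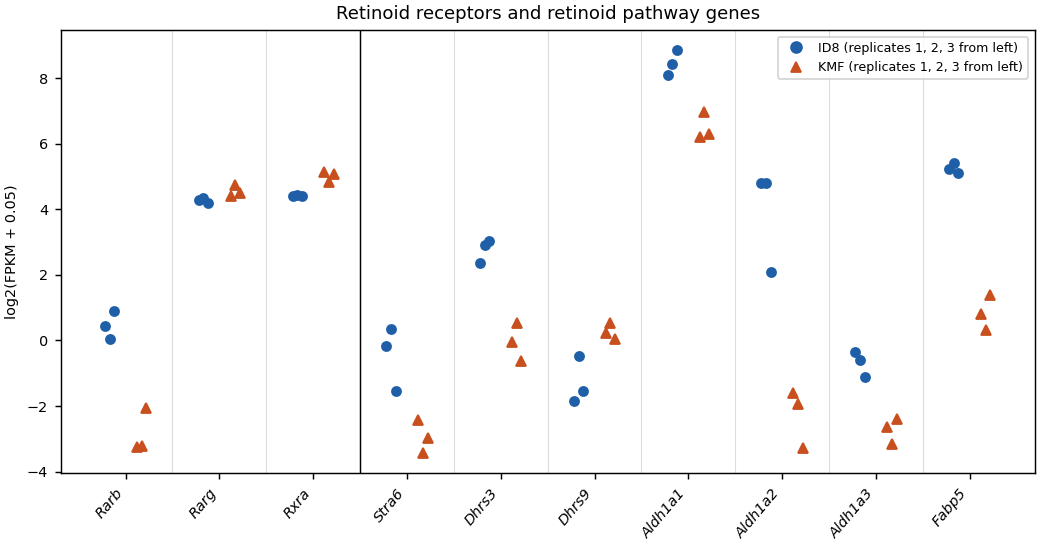
Points are single libraries, 3 per line, on a log2 scale of FPKM with 0.05 added, with the retinoid receptors to the left of the line and 7 listed genes of retinoid supply to the right. Rarb lies low in KMF together with 6 of the 7 supply genes shown, and Rxra and Dhrs9 lie higher there.

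Nr3c2, the mineralocorticoid receptor, had 0.464, 0.343 and 0.494 FPKM in ID8 and 1.30, 1.53 and 1.44 in KMF (log2 fold change 1.75 ± 0.20, edgeR adjusted p 0.000346). The glucocorticoid receptor gene Nr3c1 had 27.7, 25.8 and 29.5 FPKM in ID8 and 35.9, 43.0 and 35.3 in KMF, a smaller rise of 0.50 (edgeR adjusted p 0.00471). Of 14 glucocorticoid target genes 4 were listed, of which Lcn2 (3.46) and Dusp1 (0.93) were higher and Fkbp5 (-0.58) and Per1 (-0.43) lower on the log2 scale. In Lcn2 KMF replicate 1 stood apart at 52.7 FPKM, with 9.35 and 3.59 in the other KMF libraries, and without it the value was 1.71. Thus the listed targets were split evenly, and without ID8 replicate 1 or without ID8 replicate 3 neither Lcn2 nor Dusp1 passed the test. Lcn2 lost its call without ID8 replicate 2 as well, and Per1 without ID8 replicate 1, KMF replicate 2 or KMF replicate 3.

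Nr1h3, the liver X receptor LXRα that senses sterols, had 2.92, 2.65 and 3.10 FPKM in ID8 and 0.983, 0.458 and 0.455 in KMF (log2 fold change -2.16 ± 0.33, edgeR adjusted p 0.00153). Of 11 LXR target genes 7 were listed and 6 called, 5 of them higher in KMF, among them the desaturase Scd1 (2.99), the cholesterol exporter Abca1 (1.68) and Apoe (0.77), with Lpcat3 lower (-0.33). Abca1 had 2.79, 1.31 and 0.681 FPKM in KMF against 0.497 to 0.532 in ID8. Its value was 1.004 without KMF replicate 1, and the call was lost without any 1 of the ID8 libraries. Apoe lost its call without ID8 replicate 1 or KMF replicate 2, and without ID8 replicate 1 only 3 of the 5 were called. Mylip, listed but not fitted, was scarce and lower in KMF, at a mean of 0.00983 FPKM against 0.206 in ID8. In the main fit the receptor transcript and 5 of the 7 listed targets therefore lay in opposite directions, while 48.9% of all called listed genes were higher. Esrra, an orphan receptor of energy metabolism, changed by -0.29 (edgeR adjusted p 0.0453), and no fit that left out a library kept the call. Of 20 coregulators of nuclear receptors 11 were listed and 9 called, 4 higher and 5 lower in KMF, all by less than 2-fold, with Ncoa7 at -0.90, Ncoa3 at 0.82 and Tbl1x at -0.73. The number called higher was 2 in 8 of the 14 alternatives, among them 3 that left out a library (ID8 replicate 1, ID8 replicate 2 or KMF replicate 2). The number called lower was 3 without ID8 replicate 1, KMF replicate 2 or KMF replicate 3.

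The clock repressor Nr1d1 (REV-ERBα) rose from 13.4 ± 1.0 to 19.7 ± 1.0 FPKM (log2 fold change 0.60, edgeR adjusted p 0.00127). The clock-linked bHLH genes were less even between libraries. Bhlhe40 had 34.0, 41.1 and 54.7 FPKM in ID8 and 47.8, 70.0 and 70.3 in KMF, overlapped and was not called (edgeR adjusted p 0.0554). Bhlhe41 had 2.20, 2.30 and 3.18 FPKM in ID8 and 3.13, 7.23 and 4.58 in KMF, and its call (1.00 ± 0.30, edgeR adjusted p 0.0303) was lost in 7 of 14 alternatives. Of 15 partners in the clock 5 were listed and 4 called, with Ciart (1.83), Clock (0.71) and Arntl (0.64) higher and Per1 lower. The call of Per1 was lost without ID8 replicate 1, KMF replicate 2 or KMF replicate 3, and that of Ciart without ID8 replicate 1 or KMF replicate 3.

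Forkhead genes gave 13 protein-coding members of 43 annotated and Foxd2os. Of 13 fitted 5 were higher and 7 lower in KMF, and their median log2 fold change of -0.36 hides a few large values. Foxs1 (ENSMUSG00000074676, chr2:152931898-152933208), a gene of pericytes and the neural crest, had 229, 170 and 80 counts in ID8 and 3, 1 and 2 in KMF. The level was 80.5-fold lower in KMF (95% counting interval 36.7 to 220), although ID8 replicate 3 held fewer reads than the other ID8 libraries. Foxo6, a FOXO factor best known from the brain, was abundant and dropped from 49.5, 47.5 and 47.9 FPKM in ID8 to 18.3, 10.8 and 12.1 in KMF (-1.78 ± 0.19, edgeR adjusted p 0.000248).

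The other FOXO genes, which act downstream of insulin and PI3K signalling, differed far less, with Foxo3 at -0.35 and Foxo4 at -0.40. Foxf1, a factor of the mesenchyme that lines the gut and lung, had 9, 22 and 18 counts in ID8 and 123, 135 and 210 in KMF (log2 fold change 3.23 ± 0.36, edgeR adjusted p 0.000350). Its paralogue Foxf2 was more abundant and leaned the other way, with 10.4, 10.8 and 11.2 FPKM in ID8 and 9.46, 7.01 and 7.45 in KMF, but missed the threshold (edgeR adjusted p 0.0561). Foxp1 rose from 11.8 ± 1.0 to 22.2 ± 1.0 FPKM (0.96, edgeR adjusted p 7.91e-05), while Foxp4 went from 60.2 ± 7.2 to 44.9 ± 2.9 (-0.38, edgeR adjusted p 0.0190), a call lost in 3 fits that left out a library. The Foxp paralogues thus differed in direction, while of the Foxf pair Foxf1 alone was called. Foxk1 (0.78), Foxd1 (2.06) and Foxd2os (1.69) were also higher in KMF, and Foxc1 (-0.61) and Foxj3 (-0.36) lower. Foxa3, not fitted, had 15, 12 and 4 counts in ID8 and 1 in each KMF library.

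HMG box genes gave 9 members of 23 annotated, with 2 higher and 6 lower in KMF. Sox9 (ENSMUSG00000000567, chr11:112782224-112787760), which maintains progenitors in many epithelia and drives cartilage and testis, had 8.46, 10.2 and 8.95 FPKM in ID8 and 21.3, 24.9 and 23.1 in KMF (log2 fold change 1.37 ± 0.10, edgeR adjusted p 6.18e-05). Sox6, which acts with Sox9 in cartilage, had 8, 13 and 23 counts in ID8 and 125, 239 and 272 in KMF (3.85 ± 0.44, edgeR adjusted p 0.000352). Their groups lay far apart. Sox5, the close paralogue of Sox6, went the other way at -0.60 (edgeR adjusted p 0.0118), and Sox12 (-0.41) and Tox4 (-0.30) were slightly lower in KMF too.

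Sox4, abundant in many tumours, fell from 43.0, 53.3 and 51.3 FPKM in ID8 to 31.8, 22.6 and 23.3 in KMF (log2 fold change -0.89 ± 0.15, edgeR adjusted p 0.00260). The lincRNA Gm26735 on the opposite strand shares 54.6% of the exon bases of Sox4. Sox13, a SoxD gene like Sox5 and Sox6, had 69, 44 and 19 counts in ID8 and 5, 0 and 3 in KMF (-3.93, edgeR adjusted p 0.00452), or -4.81 without KMF replicate 1. Tox (ENSMUSG00000041272, chr4:6686353-6991557), a factor of T cell development, had 71, 51 and 83 counts in ID8 and 0 in each KMF library, at least 22.3-fold lower. Sox8 varied within both lines (10, 34 and 16 counts in ID8 and 104, 31 and 74 in KMF) and was not called (edgeR adjusted p 0.0506), though without ID8 replicate 2 it was, at 2.52.

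Of the 16 annotated TEAD, MEF2, NFI and EBF genes 8 were listed, all 8 had their higher mean in KMF, and 7 passed the test. The upper quartile scaling, which shifts the median of all genes by -0.11, gave 6 of them higher, and none lower. Tead4 (ENSMUSG00000030353, chr6:128224288-128300823), a DNA-binding partner of YAP and TAZ, had 0.937, 1.32 and 1.04 FPKM in ID8 and 7.79, 7.70 and 7.92 in KMF. KMF libraries were nearly equal, and the log2 fold change was 2.87 ± 0.16 (edgeR adjusted p 2.03e-05). Of 25 YAP, TAZ and TEAD partners and targets 12 were listed and all 12 passed the test, beside 92.9% of all fitted listed genes. Of the 12, 7 were higher and 5 lower in KMF, while 48.9% of all called listed genes were higher. The median log2 fold change of the 12 was 0.55. Tgfb2 (1.29) and Gadd45b (1.14) were higher, and Nt5e (-6.77) and Fjx1 (-1.52) lower. Past 2-fold 2 of the listed genes were higher and 3 lower, so the list had no common direction with Tead4. Without ID8 replicate 2 Nt5e was at -6.18. Of the 5 lower ones 3 were still called without ID8 replicate 1 or without KMF replicate 3.

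Ebf3 (ENSMUSG00000010476, chr7:137193673-137314445), a factor of neurons and muscle, had 48, 25 and 46 counts in ID8 and 319, 210 and 466 in KMF (log2 fold change 3.07 ± 0.27, edgeR adjusted p 0.000106), and Ebf4 rose by 1.73. Mef2c, a muscle and neuron factor, was the least changed of the members of this family past 2-fold, at 1.08 ± 0.34 FPKM in ID8 and 2.65 ± 0.56 in KMF (1.33, edgeR adjusted p 0.00644). Its ubiquitous paralogue Mef2d rose from 27.1 ± 0.6 to 38.0 ± 0.3 FPKM (0.52, edgeR adjusted p 0.000384). The NFI genes were abundant and moved by less than 2-fold, with Nfib at 0.55, Nfic at 0.25 (edgeR adjusted p 0.0281, a call that ended with upper quartile scaling, with a minimum of 10 counts in every library and in 4 of the 6 fits that left out a library) and Nfix, at 60.3, 55.5 and 60.4 FPKM in ID8 and 64.0, 68.8 and 62.7 in KMF, not called (edgeR adjusted p 0.0809).

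The members lie on 19 chromosomes. On chromosome 15, which carries Myc and Ptk2, the 3 called members were Hoxc genes and all lower, beside 52.2% higher among called genes. This chromosome was singled out after the values were seen, and the part of DNA copy number in these differences was not tested.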

How the data were processed

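Poly(A) RNA of 6 tumorsphere samples, 3 ID8 and 3 KMF, was sequenced with an unstranded kit by the study's sequencing provider. The deposited table gives, for each listed gene, raw fragment counts and FPKM per library, which the authors made. The submitters' processing notes name CASAVA 1.8, STAR 2.5, DESeq2 and mm10, the study's methods name TopHat2, and the counting tool, annotation and strand setting are not given in the sources used here. The deposited columns of the authors' own comparison hold group mean signal, log2 fold changes and p-values. Of these the p-values served only to find how many genes had been tested (17359) and the largest adjusted value kept (0.0499). Gene positions are those of the table, on mm10. The other columns were not used. Depth was recovered from counts, FPKM and gene length.

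The quasi-likelihood test of edgeR 4.0.16 (R 4.3.3), two-sided, was applied to the counts after filterByExpr and TMM scaling, with library sizes set to all fragments on genes, on all 7320 listed genes, of which 6967 were fitted. P-values were adjusted by Benjamini and Hochberg over all 17359 genes. On simulated counts for KMF against ID8 (6956 genes, 200 changed by 1 on the log2 scale) 85.5% of the changed genes were recovered and 10 unchanged genes were called. The changed genes there were few and well read, and the adjustment ran over the 7320 listed genes. In the real fit 92.9% of the fitted genes passed, scarce ones included, so these rates do not carry over to it. Libraries of a line differed by more than sampling noise (chi-square per degree of freedom 19.9 to 38.0). Same-numbered libraries did not deviate together, so the replicate number is no pairing.

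A line with 3 counts or fewer in every library was treated as at the floor: a fold against 0 counts is a bound from 3 counts per library, and otherwise a ratio of summed counts with an exact 95% interval, which covers counting error only. Named members were those at the floor in 1 line with a mean of at least 20 counts in the other, the extreme members of each family past 2-fold, Hox genes and a list of ovarian and nuclear receptor factors, the 5 most abundant, and those listed but not called. All others were named after their values were seen, and so were the antisense partners. Of partner and target lists, a few genes each were named, mostly but not always those with the largest change, and some for their direction once values were seen. Members and lists were chosen with earlier results of these data known. Alternatives were DESeq2 1.42.0, limma 3.58.1 on log2(FPKM + 1) and log2(FPKM + 0.1), other scalings and filters, a replicate block and leaving out each library. Promoter sequences came from RefSeq (GRCm38.p6), and exon overlaps from GENCODE M21. Some genes are counted in the totals but not reported here by name.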

Additional observations from a re-analysis of the deposited data

How the results depend on the processing

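Of 86 fitted members 66 kept their side of the threshold in all of the alternatives in which they could be fitted (14 at most), 13 lost the call in at least 1 and 7 gained it in at least 1, and none changed direction. The number called, 78, ran from 57 (at least 10 counts in every library, which leaves 64 members to fit) to 87 (no filter), and from 69 to 78 when a library was left out. The number changed at least 2-fold, 46, was 24 under the stricter filter and 21 with limma on log2(FPKM + 1), both of which remove or shrink scarce genes, and 44 to 50 without a library. The median log2 fold change of members, -0.31, was -0.43 with upper quartile scaling, -0.35 with library totals alone, -0.35 without a filter, -0.10 with the stricter filter, -0.37 with DESeq2 and -0.39 with limma on log2(FPKM + 0.1), and -0.33 to -0.30 without a library. The median of all fitted genes moved by -0.11 with upper quartile scaling and by 0.44 with the stricter filter. With the replicate block 75 members were called, 36 higher and 39 lower, and 43 changed at least 2-fold. The deviations of same-numbered libraries correlated at 0.079, -0.149 and 0.088, and not every library correlated best with its own number. Without the noncoding members and Runx1t1, which does not bind DNA by itself, 74 were called. At this depth 3 counts correspond to 0.0903 to 0.130 CPM, which limits the scarce members.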
